A study of Mus musculus with 36 samples.

Results

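Heat shock proteins are molecular chaperones, and 8 genes for small and stress-inducible members were examined in cultured mouse astrocytes given dexamethasone, a synthetic glucocorticoid, or vehicle: Hspb1, Hspb8, Cryab, Hspa1a, Hspa1b, Dnajb1, Hsph1 and Hspa8. The genes were taken by name, and their probes by the gene symbol the deposited annotation gives. That gave 14 probes for 7 genes. Hsph1 is listed only under its older symbol Hsp105, a synonym in RefSeq, with 1 probe, so 15 of the 45281 probes belong to the 8 genes. All 8 genes had a probe above background on at least 2 arrays and entered the test of 20661 genes.

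The material was total RNA of primary astrocyte cultures from C57B/6 mouse pups aged P0-P2, labelled as cortical, although the growth protocol names cortex or hippocampus. Cultures reached about confluence in serum-containing medium, and medium with about 100 nM dexamethasone or vehicle was then given for 8 times: 0.25, 1 or 2 h, 4 or 6 h, or 12, 18 or 24 h. Illumina arrays measured 36 samples in 16 groups, with 3 arrays per group at 2 h and 4 h and 2 per group elsewhere, and all cultures shared the strain, age and culture conditions. The labels leave unsaid whether replicates came from separate cultures, and every p-value therefore reflects spread among these arrays alone, part of which may be technical. Titles of the vehicle samples at 2, 4 and 6 h carry an added suffix that those of the dexamethasone samples lack, and its meaning is not stated. An effect of dexamethasone at 2, 4 and 6 h therefore cannot be told apart from whatever the suffix marks. The average over the 8 times and every comparison that uses these vehicle samples share that limit.

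Small heat shock proteins such as HSPB1, HSPB8 and alpha-B-crystallin (the Cryab product) hold unfolded proteins in a soluble state without using ATP. The HSP70 chaperones (Hspa1a, Hspa1b and Hspa8) refold such clients with ATP, a J-domain protein such as the Dnajb1 product delivers clients and stimulates the ATPase, and the HSP110 protein encoded by Hsph1 exchanges the nucleotide. Heat shock factor 1 switches on most of these genes during protein stress by binding inverted repeats of GAA upstream of them, whereas Hspa8 is made constitutively. The same HSP70 and HSP90 machinery folds the glucocorticoid receptor into its hormone-binding form, and in brain HSPB1 and alpha-B-crystallin are found mainly in glia.

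The upstream sequences of Hspb1, Hspa1a, Hspa1b and Hsph1 are shown because these 4 genes each had a probe with an average difference among the largest of the probes tested, and carry GAA repeats there. RefSeq promoter windows (build GRCm38.p6, 300 bases, from 250 before to 50 after the start site) were found for 6 of the 8 members, in 8 windows; Cryab and Hspa8 are named only. Each line gives the 250 bases before the start site, 5′ to 3′ on the gene's strand, with matches to GAANNTTC or TTCNNGAA in capitals. Hspb1 lies at chr5:135887669-135887918 on the plus strand, Hspa1a at chr17:34972157-34972406, Hspa1b at chr17:34959239-34959488 and Hsph1 at chr5:149636337-149636586, all 3 on the minus strand.
Hspb1: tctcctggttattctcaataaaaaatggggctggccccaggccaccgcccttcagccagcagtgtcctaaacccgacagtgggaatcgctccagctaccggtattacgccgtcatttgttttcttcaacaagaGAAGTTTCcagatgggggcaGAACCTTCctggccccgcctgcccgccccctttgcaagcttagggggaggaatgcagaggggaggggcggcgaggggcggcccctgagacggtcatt
Hspa1a: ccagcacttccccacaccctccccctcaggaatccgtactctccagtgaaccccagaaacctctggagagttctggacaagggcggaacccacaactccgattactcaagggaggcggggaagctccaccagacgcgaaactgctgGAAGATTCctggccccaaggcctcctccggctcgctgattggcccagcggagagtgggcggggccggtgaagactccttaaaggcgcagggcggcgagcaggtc
Hspa1b: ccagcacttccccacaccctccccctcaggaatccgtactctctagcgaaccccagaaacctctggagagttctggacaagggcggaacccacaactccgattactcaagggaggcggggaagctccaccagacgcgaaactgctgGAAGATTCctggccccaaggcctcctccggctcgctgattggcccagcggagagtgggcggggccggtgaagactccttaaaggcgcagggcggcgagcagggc
Hsph1: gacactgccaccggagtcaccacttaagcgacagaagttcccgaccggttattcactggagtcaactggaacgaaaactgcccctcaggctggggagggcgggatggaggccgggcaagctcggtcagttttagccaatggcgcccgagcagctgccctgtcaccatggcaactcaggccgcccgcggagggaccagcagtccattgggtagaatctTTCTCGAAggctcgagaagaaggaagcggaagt
Hspb1 held GAANNTTC at -117 to -110 and again at -97 to -90, counted from the start site. In Hspa1a and Hspa1b, neighbouring genes that encode nearly the same protein, it stood at -104 to -97, and their 300-base windows were identical at 296 positions (98.7%). Hsph1 has windows for a pair of start sites. From the more upstream start, used here, TTCNNGAA matched at -33 to -26, and a triple, in which TTCNNGAA and GAANNTTC share their GAA, stood after the start at 37 to 49 as TTCTGGAAAGTTC. Hspb8 had GAANNTTC at 3 to 10, and neither Dnajb1 window had a match. Of all 32851 windows of this length, 15.1% held either repeat on either strand and 0.603% held a triple. The core of a glucocorticoid response element, ACANNNTGT, was in 6.85% of all windows and in no member's window. These are matches of letters in a short window and not measured binding.

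Levels are log2 of background-corrected intensity, and a level of 5.83 marks background. Because a probe's brightness depends on its sequence, levels are compared only within a probe. The deposited intensities had been quantile normalized, and each array had 51.4% to 51.6% of its probes above background. As a check of the labels, Fkbp5, Tsc22d3 and Per1, direct targets of the glucocorticoid receptor, rose on average over the 8 times by 3.22, 2.14 and 1.86. Of 10 astrocyte markers, 9 were above background on every array. So were 6 of 6 measured fibroblast and pericyte markers, 5 of 10 oligodendrocyte lineage markers, 3 of 4 neuron markers and 1 of 5 endothelial markers. The cultures also gave signal for 8 of 9 measured microglia and macrophage markers on every array, with a summed level (log2) of 10.08 to 13.34 on dexamethasone arrays and 10.30 to 13.56 on vehicle arrays. Vehicle replicate 1 at 12 h stood apart in that sum, at 12.83 against 10.30 for its replicate 2; the 0.25 h and 1 h vehicle arrays were at 12.96 to 13.56 and the others at 10.30 to 11.54. In bulk RNA, fewer cells of a type and less RNA per cell cannot be told apart.

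Averaged over the 8 times with equal weight, 4 of the 8 heat shock genes rose with dexamethasone and none fell (adjusted p under 0.05, limma with Benjamini-Hochberg adjustment over all genes), against 5.16% of all genes called higher. The 4 were Hspb1, Hspa1a, Hsph1 and Cryab. The median difference, dexamethasone minus vehicle, was 0.22 on the log2 scale over the members and -0.01 over all genes. Because the members were chosen with earlier results of these data known, these comparisons with all genes do not test the family as a set. Hspb8 missed the threshold on the probe that represents it, and Hspa1b, Dnajb1 and Hspa8 did not pass it. Call counts by time were 0 at 0.25 h (0% of all genes called higher), 0 at 1 h (0.0629%), 1 at 2 h (0.581%), 3 at 4 h (1.55%), 3 at 6 h (1.39%), 3 at 12 h (2.2%), 3 at 18 h (1.66%) and 3 at 24 h (1.83%), and every called member was higher with dexamethasone. Of the microglia and macrophage markers, 2 of 9 were lower on average, Aif1 (-0.51, adjusted p = 0.0081) and Cx3cr1 (-0.54, adjusted p = 0.0062). By time, any of these markers were called only at 12 h, where 3 of 9 were lower (3.46% of all genes called lower). That is the time of the vehicle array that stood apart in their sum. Of all genes, 6.65% were called lower on average, and the part of these markers in the averages was not tested. At an unadjusted p under 0.05 there were 0 members at 0.25 h and 1 at 1 h.

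**Figure D1:**
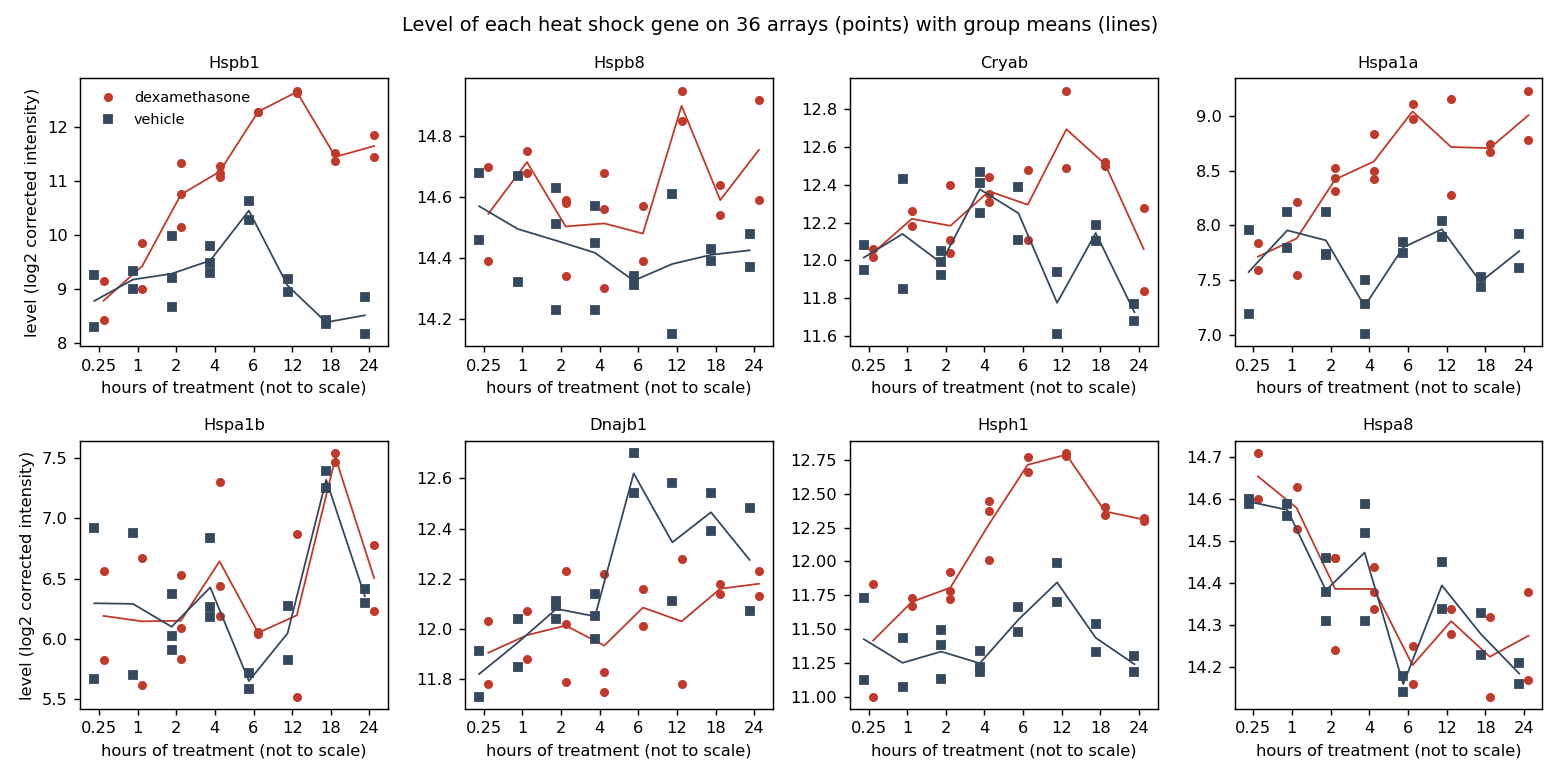
Level (log2 of corrected intensity) of each heat shock gene on the 36 arrays against hours of treatment, with dexamethasone as red circles, vehicle as dark squares and lines through the group means; each panel has its own level axis. Dexamethasone points lie above vehicle points at 6 of 8 times for Hspb1 and Hspa1a and at 7 of 8 for Hsph1, and overlap them at 6 of 8 for Hspa8.

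Hspb1, the gene for the small heat shock protein also called HSP25 in mouse, had the largest average difference of the 8. Dexamethasone arrays stood at 9.14 and 8.43 at 0.25 h, with vehicle at 9.26 and 8.30, and at 9.00 and 9.85 at 1 h, with vehicle at 9.01 and 9.34. Treated and vehicle arrays thus overlapped at both of these times. At 2 h the treated arrays were at 11.34, 10.15 and 10.75 against 9.98, 9.21 and 8.66, and at 4 h at 11.28, 11.15 and 11.08 against 9.48, 9.30 and 9.80. By 6 h both treated arrays were at 12.28 and the vehicle arrays at 10.63 and 10.27. From 2 h on, no treated array was as low as any vehicle array of its time. Treated levels at 12 h were 12.62 and 12.67 and vehicle levels 8.95 and 9.18. They were 11.37 and 11.52 against 8.42 and 8.35 at 18 h, and 11.85 and 11.44 against 8.17 and 8.86 at 24 h. Treated arrays at 18 h and 24 h were thus below those of 6 h and 12 h, and the vehicle means at 18 h and 24 h, 8.39 and 8.51, were below those of 2 h to 6 h, 9.28 to 10.45.

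The difference for Hspb1 averaged 1.87 (SE 0.13, 95% interval 1.61 to 2.13, 3.66-fold, adjusted p = 2.3e-11). By time it was 0.01 (SE 0.38) at 0.25 h and 0.25 (SE 0.38) at 1 h, both with adjusted p = 1. It then was 1.46 (SE 0.31, adjusted p = 0.014) at 2 h, 1.65 (SE 0.31, adjusted p = 0.0014) at 4 h and 1.83 (SE 0.38, adjusted p = 0.0055) at 6 h. These first called differences correspond to 2.76-fold, 3.13-fold and 3.56-fold. At 12 h the difference was 3.58 (SE 0.38, 11.9-fold, adjusted p = 4.1e-07), at 18 h 3.06 (8.36-fold, adjusted p = 5.1e-06) and at 24 h 3.13 (8.75-fold, adjusted p = 2.7e-06). The 2 h call ended without any 1 of 4 arrays (dexamethasone replicates 1 and 3, vehicle replicates 2 and 3), with differences of 1.15 to 1.81 over the 6 omissions. In the limma fit with the replicate number as a block, adjusted p was 0.00023 at 2 h and 2.1e-05 at 4 h. That fit called 1.89% and 6.46% of all genes at these times, in either direction. The 6 h call ended without either dexamethasone array or without vehicle replicate 2 (differences 1.65 to 2.01), whereas the calls at 4, 12, 18 and 24 h held without each array of their time.

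In the fit without a replicate block, Hspb1 was the only heat shock gene called in the test of whether the treatment difference varied over the 8 times (F = 12.3 on 7 degrees of freedom, adjusted p = 0.00016; 2.74% of all genes were called). A second of the 8 genes was called there without any 1 of 5 arrays. The mean difference at 12, 18 and 24 h exceeded that at 1, 2 and 4 h by 2.14 (SE 0.29, adjusted p = 2e-05), again the only call among the 8 (1.85% of all genes called higher), with a second one without any 1 of 3 arrays. This difference is named late minus early. Both tests use vehicle samples whose titles carry the suffix. A change of the difference with time therefore cannot be told apart from whatever the suffix marks. With the replicate number as a block, Hspa1a passed both tests (adjusted p = 0.00077 and 0.021), Hsph1 the first (adjusted p = 0.0055) and Cryab the second (adjusted p = 0.015), against 10.2% and 13.6% of all genes. Hspa1a had 0.47 (SE 0.21, adjusted p = 0.27), Cryab 0.45 (SE 0.15, adjusted p = 0.092) and Hsph1 0.33 (SE 0.17, adjusted p = 0.4) in the same comparison. In late minus early, 1 of 9 microglia and macrophage markers was lower (3.01% of all genes called lower), with a median of -0.52. At 12 h, 3 of 9 were lower (3.46% of all genes called lower), with a median of -1.25. Of 10 oligodendrocyte lineage markers 1 was lower at 12 h, with a median of -0.68. At 18 h and 24 h, 0 markers of either list were called. The microglia and macrophage medians were then -0.05 and -0.11, and the oligodendrocyte lineage medians 0.13 and 0.05. The part of these markers in the Hspb1 result was not tested. Without vehicle replicate 1 of 12 h, the array that stood apart, the Hspb1 difference was 3.46 at 12 h and 2.10 in late minus early. The other Hspb1 probe was above background on 0 of 36 arrays and gives no second reading.

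**Figure D2:**
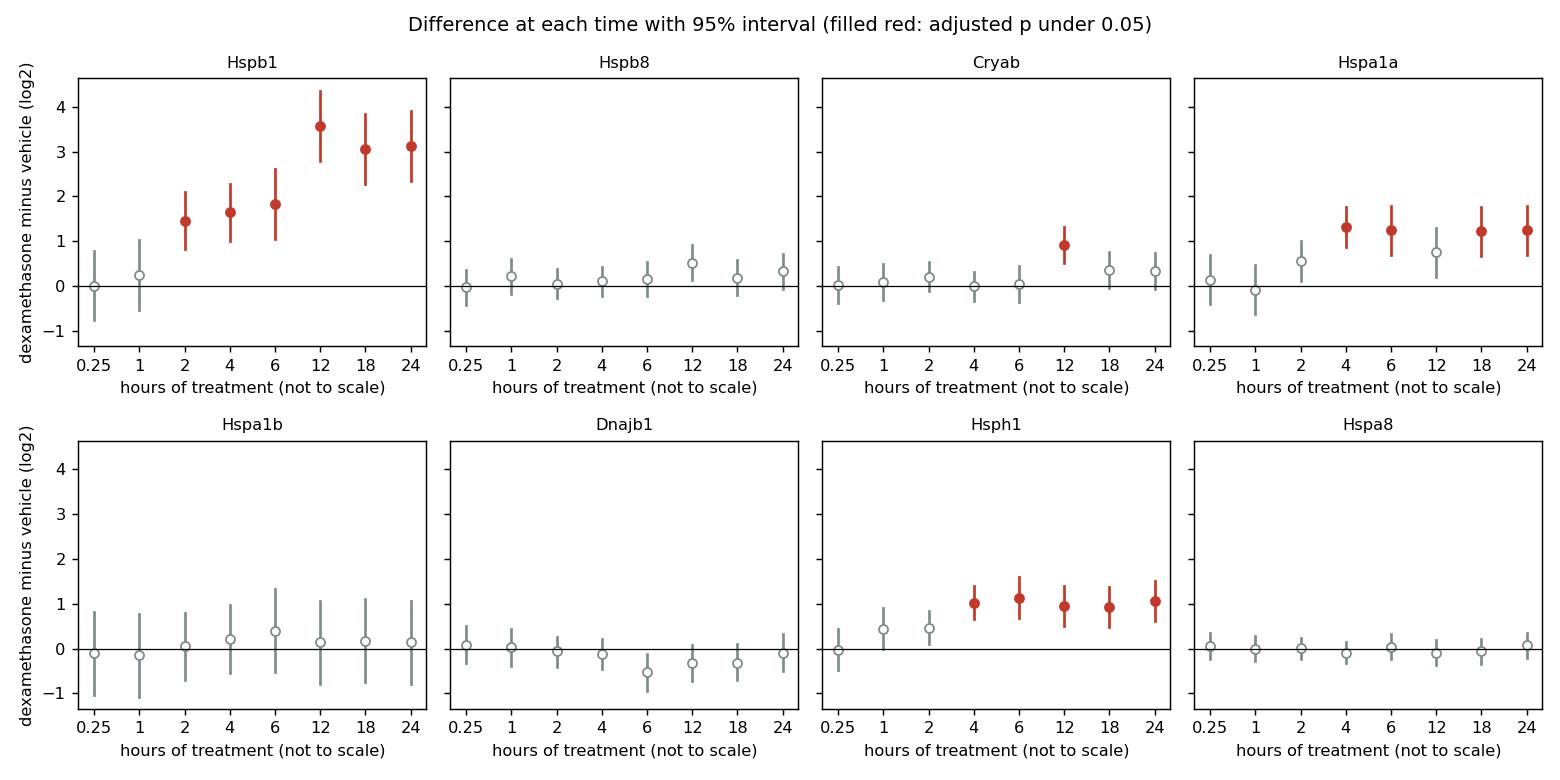
Dexamethasone minus vehicle (log2) for each heat shock gene against hours of treatment, with 95% intervals as vertical lines and filled red points where the adjusted p was under 0.05. The Hspb1 difference is 1.46 to 1.83 at 2 h to 6 h and 3.06 to 3.58 from 12 h on, while the Hspa1a and Hsph1 differences lie between 0.75 and 1.32 from 4 h on and the Hspa8 differences between -0.09 and 0.08.

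The vehicle samples at 2, 4 and 6 h are those whose titles carry the added suffix. Comparing these times with others cannot tell a change with time from whatever the suffix marks. Within that limit, the Hspb1 level differed between vehicle groups. The mean of 2, 4 and 6 h exceeded 0.25 h by 0.97 (SE 0.30, adjusted p = 0.047), the only one of the 8 genes called there (3.37% of all genes called higher). Leaving out any 1 of 7 of the 10 arrays involved ended that call (0.25 h replicate 2, 2 h replicates 1 and 2, 4 h replicates 1 and 3, and both 6 h arrays), and the values ran from 0.49 to 1.45. The mean of 18 h and 24 h then lay below that of 2 h to 6 h by a difference of -1.30 (SE 0.23, adjusted p = 0.00045; 11% of all genes called lower), which held without each array. No member was called for vehicle 1 h minus 0.25 h (0.00968% of all genes were called in either direction), and 0 had an unadjusted p under 0.05. Over all 8 vehicle groups, Hspb1 (F = 6.09, adjusted p = 0.0065) and Dnajb1 (F = 3.87, adjusted p = 0.039) varied, against 15.7% of all genes. The Hspb1 call there ended without vehicle 6 h replicate 1 (adjusted p = 0.06), and the Dnajb1 call without any 1 of 11 arrays. All 9 microglia and macrophage markers were lower at 2 h to 6 h than at 0.25 h in vehicle (median -2.57), as were 5 of 10 oligodendrocyte lineage markers (median -1.23). Of all genes, 3.89% were called lower there, and the part of these markers in the vehicle changes was not tested.

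The order of the 16 Hspb1 group means placed dexamethasone at 12 h highest (12.64, SD 0.03) and at 6 h next (12.28, SD 0.01), followed by dexamethasone at 24 h (11.64, SD 0.29), 18 h (11.45, SD 0.11), 4 h (11.17, SD 0.10) and 2 h (10.75, SD 0.60). Vehicle at 6 h came next, at position 7 (10.45, SD 0.26) and vehicle at 18 h last (8.39, SD 0.05). Of the 15 pairs of neighbours in this order, 4 had arrays that did not overlap: 12 h and 6 h of dexamethasone, 6 h and 24 h of dexamethasone, 18 h and 4 h of dexamethasone, and vehicle at 6 h and 4 h. Dexamethasone at 0.25 h and 1 h lay among the vehicle groups.

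Hspa1a encodes a stress-inducible HSP70. Treated arrays were at 7.84 and 7.59 at 0.25 h against 7.96 and 7.19, and at 7.55 and 8.21 at 1 h against 7.79 and 8.12. The groups overlapped at these times. At 2 h the treated arrays had 8.52, 8.43 and 8.31 and the vehicle arrays 8.12, 7.73 and 7.74. At 4 h they had 8.83, 8.50 and 8.42 against 7.50, 7.28 and 7.01. At 6 h the values were 9.11 and 8.97 with dexamethasone and 7.75 and 7.85 with vehicle. Treated arrays lay above vehicle arrays at each of these times and at the later ones. At 12 h they were at 9.15 and 8.28 against 8.04 and 7.89, a spread between the treated arrays wider than at 18 h, where 8.67 and 8.74 stood against 7.53 and 7.44. At 24 h the levels were 8.78 and 9.23 against 7.61 and 7.92.

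The average difference for Hspa1a was 0.80 (SE 0.09, 95% interval 0.61 to 0.99, 1.74-fold, adjusted p = 3.1e-07). It was called at 4 h (1.32, SE 0.22, adjusted p = 0.00031), 6 h (1.24, adjusted p = 0.0081), 18 h (1.22, adjusted p = 0.006) and 24 h (1.24, adjusted p = 0.0046). At 2 h the difference of 0.56 had adjusted p = 0.75, and with the replicate number as a block adjusted p = 0.045, which made 2 members called at 2 h (1.89% of all genes in either direction). At 12 h the difference was 0.75 (SE 0.27, adjusted p = 0.11), and with the block adjusted p = 0.0045, where 18.6% of all genes were called in either direction. Leaving out any of the 4 arrays ended the call at 6 h and at 18 h, and leaving out dexamethasone replicate 2 or vehicle replicate 1 ended it at 24 h, with differences of 1.02 to 1.47 over these omissions. The 4 h call held without each of its 6 arrays. The other Hspa1a probes were above background on 3 and 1 arrays and were too dim for a second reading.

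Hsph1 encodes HSP110, the nucleotide exchange factor of HSP70. At 0.25 h the treated arrays had 11.83 and 11.00 and the vehicle arrays 11.73 and 11.12, the only time at which they overlapped. At 1 h they had 11.73 and 11.67 against 11.07 and 11.43, and at 2 h 11.72, 11.92 and 11.78 against 11.49, 11.38 and 11.13. Treated arrays thus lay above vehicle arrays from 1 h, as 9.2% of all genes did at 1 h and 2.98% at 2 h, and neither difference passed the test. Levels at 4 h were 12.37, 12.01 and 12.45 against 11.22, 11.18 and 11.34. At 6 h they were 12.66 and 12.77 against 11.66 and 11.48, and at 12 h 12.78 and 12.80 against 11.70 and 11.99. The treated level was highest at 12 h. It was 12.40 and 12.34 against 11.54 and 11.33 at 18 h, and 12.32 and 12.30 against 11.30 and 11.18 at 24 h.

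The average difference for Hsph1 was 0.75 (SE 0.07, 95% interval 0.60 to 0.91, 1.69-fold, adjusted p = 2.6e-08). Differences of 0.45 at 1 h (adjusted p = 1) and 0.47 at 2 h (adjusted p = 0.65) preceded calls at 4 h (1.03, adjusted p = 0.00056), 6 h (1.14, adjusted p = 0.0022), 12 h (0.95, adjusted p = 0.0077), 18 h (0.93, adjusted p = 0.011) and 24 h (1.07, adjusted p = 0.0028). Hsph1 was thus called at 5 of 8 times, as Hspb1 was at 6 and Hspa1a at 4. The 4 h call held without each array. The call ended without replicate 2 of either treatment at 6 h, without dexamethasone replicate 2 or vehicle replicate 1 at 12 h, without either dexamethasone array or vehicle replicate 2 at 18 h, and without vehicle replicate 2 at 24 h. Treated arrays above vehicle arrays without overlap at 6 or more of the 8 times occurred in 1.29% of all genes; Hspb1 and Hspa1a did so at 6 times and Hsph1 at 7.

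Hspa1b, the neighbouring copy of Hspa1a, gave different answers on its probes. The brighter one, which represents the gene, was above background on 28 arrays, and its average difference was 0.11 (95% interval -0.20 to 0.43, adjusted p = 0.78). Its times gave differences of -0.14 to 0.40, none called. It varied instead between replicates, as the treated levels of 5.52 and 6.87 at 12 h show, and in vehicle it was higher at 18 h and 24 h than at 2 h to 6 h by 0.78 (adjusted p = 0.047; 9.08% of all genes called higher). That call ended without any 1 of 10 of its 12 arrays, and it compares samples without and with the title suffix.

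The dimmer Hspa1b probe, above background on 19 arrays, was examined after this disagreement was seen, in a fit of all 29543 named probes above background. On it the treated arrays were at 5.47 and 5.32 at 0.25 h against 5.35 and 5.42, and at 5.67 and 5.60 at 1 h against 5.43 and 5.86. At 2 h they were at 5.41, 6.09 and 6.38 against 6.06, 5.67 and 6.02, and at 4 h at 6.72, 5.64 and 6.24 against 5.94, 5.58 and 5.37. The groups overlapped at each of these 4 times. At 6 h the levels were 6.88 and 7.21 against 6.18 and 6.15, and at 12 h 7.06 and 7.19 against 5.72 and 5.64. At 18 h they were 6.46 and 6.05 against 5.36 and 5.62, and at 24 h 7.13 and 7.0 against 5.71 and 5.97. Every treated array lay above the vehicle arrays at the 4 later times, as was so for 23.9% of all genes at 6 h, 13.7% at 12 h, 25% at 18 h and 23.4% at 24 h.

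The average difference on the dimmer Hspa1b probe was 0.62 (SE 0.10, adjusted p = 4.6e-05; 4.73% of these probes were called higher). This is a fitted value and no bound, since neither vehicle at 0.25, 12 and 18 h nor dexamethasone at 0.25 and 1 h was above background. It was called at 12 h (1.45, SE 0.28, adjusted p = 0.0021; 1.99%), where vehicle was not above background and the level was at least 2.45-fold higher with dexamethasone, taken against the lowest signal above background on the vehicle arrays. It was also called at 24 h (1.23, SE 0.28, adjusted p = 0.01; 1.66%), a call that ended without either dexamethasone array or vehicle replicate 1. At 18 h the difference was 0.77 and was not called (adjusted p = 0.21). Taken against the same kind of floor, the treated mean at 18 h was at least 1.34-fold higher. These folds rest on group means and carry no interval. The mean difference at 12, 18 and 24 h exceeded that at 1, 2 and 4 h by 0.95 (SE 0.22, adjusted p = 0.0092; 1.59%), a call that ended without the 12 h arrays (0.80, adjusted p = 0.098). The files give no probe sequences, so which of the near-identical copies, Hspa1a or Hspa1b, each probe reads cannot be told apart here.

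**Figure D3:**
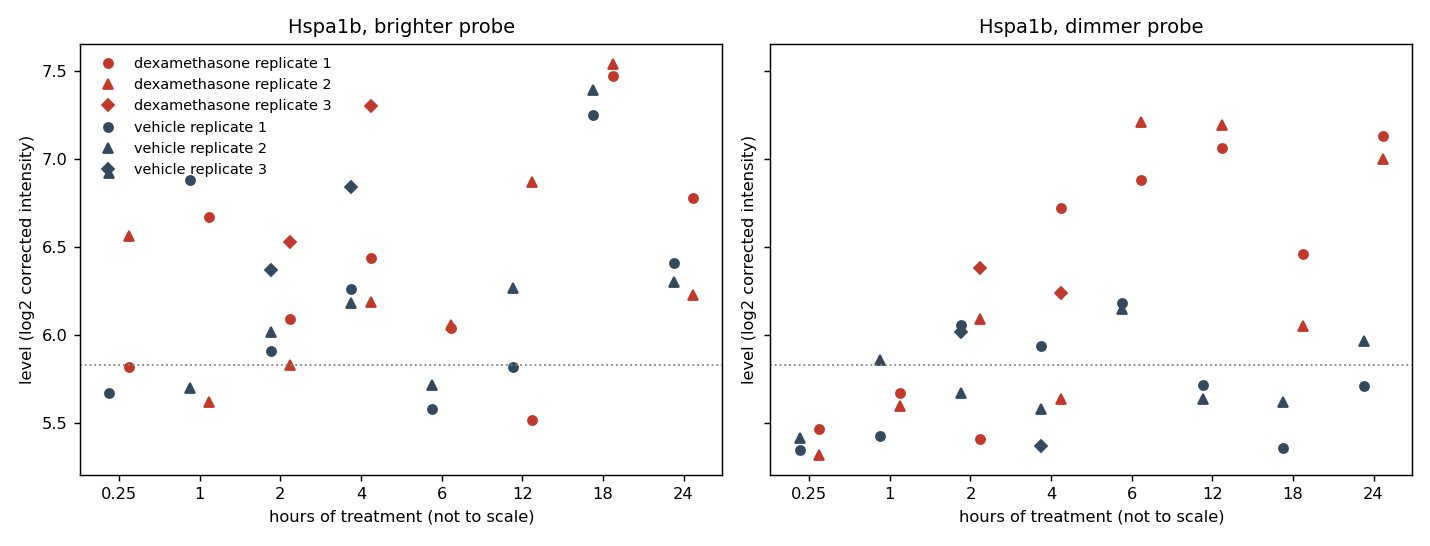
Level (log2 of corrected intensity) on the brighter and the dimmer Hspa1b probe against hours of treatment, with colours for treatment, shapes for replicate number and a dotted line at the background level of 5.83. On the dimmer probe the treated arrays lie at 6.05 to 7.21 from 6 h on and the vehicle arrays at 5.36 to 6.18; on the brighter probe treated and vehicle arrays overlap at 6 of 8 times.

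Cryab, the gene for alpha-B-crystallin, had treated levels of 11.84 to 12.90 and vehicle levels of 11.61 to 12.47, with medians of 12.29 and 12.06. At 12 h the treated arrays were at 12.90 and 12.49 and the vehicle arrays at 11.94 and 11.61. They also did not overlap at 18 h (12.52 and 12.50 against 12.10 and 12.19) or at 24 h (12.28 and 11.84 against 11.77 and 11.68), as treated arrays lay above vehicle arrays in 25% and 23.4% of all genes at these times. The average difference was 0.24 (SE 0.07, 1.19-fold, adjusted p = 0.012), and 12 h was the only time called (0.92, SE 0.19, 1.89-fold, adjusted p = 0.0035). Without the 12 h arrays the average was 0.15 (adjusted p = 0.21), so its call rests on that time. The 12 h call itself ended without dexamethasone replicate 1 or vehicle replicate 2 (0.72 and 0.75), and without vehicle replicate 1 the difference was 1.09 (adjusted p = 0.0055).

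Hspb8, whose product acts with the co-chaperone BAG3 in chaperone-assisted autophagy, is read by probes that are both above background on all 36 arrays. On the brighter probe treated levels ran from 14.30 to 14.95 and vehicle levels from 14.15 to 14.68, and the average difference was 0.19 (SE 0.06, adjusted p = 0.052). On the dimmer probe the average was 0.36 (SE 0.07, 1.28-fold, adjusted p = 0.00061), and 12 h was called (0.74, SE 0.20, adjusted p = 0.032), with 14.18 and 13.77 against 13.44 and 13.03. The 12 h call ended without dexamethasone replicate 1 or vehicle replicate 2. Treated arrays lay above vehicle arrays without overlap at 5 of 8 times on each probe, against 3.12% of all genes with 5 or more such times. The times differed: 1 h was among them for the brighter probe only and 0.25 h for the dimmer one only.

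**Figure D4:**
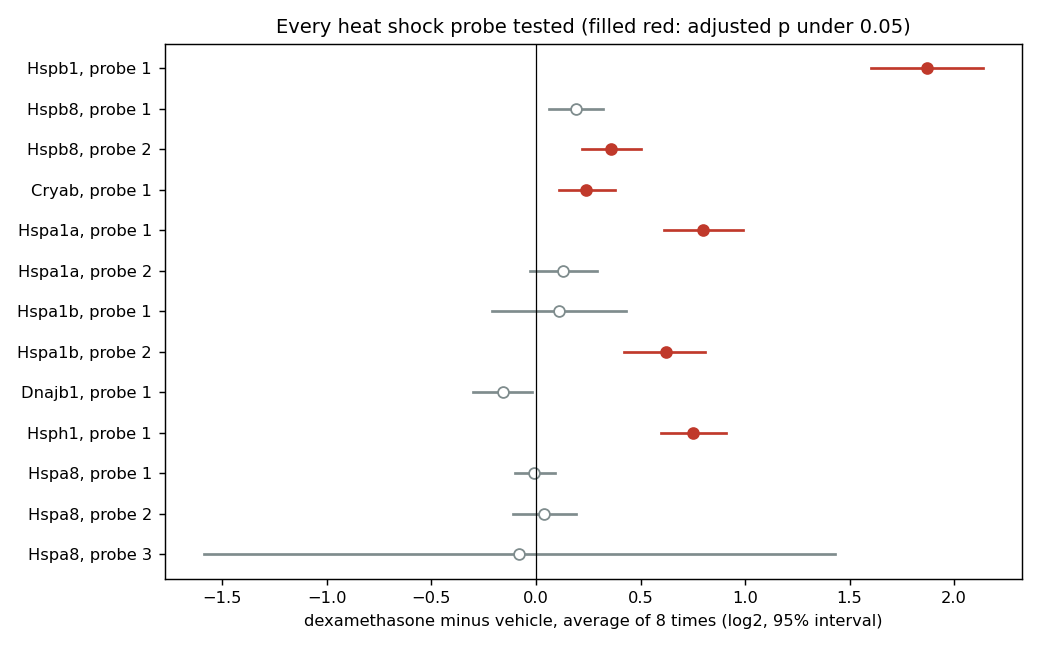
Average difference over the 8 times, dexamethasone minus vehicle on the log2 scale, for each heat shock probe tested, with 95% intervals and filled red points where the adjusted p was under 0.05; probes of a gene are numbered from the one with the highest mean. The Hspb1 probe stands at 1.87 and the 3 Hspa8 probes at -0.01, 0.04 and -0.08, the last with an interval from -1.59 to 1.43.

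Dnajb1, the main J-domain partner of inducible HSP70, was the one member with a lower mean under dexamethasone at 6 of 8 times. Its average difference was -0.16 (SE 0.07, 95% interval -0.30 to -0.02, adjusted p = 0.14), and no time was called. With the replicate number as a block the average had adjusted p = 0.021 (24.1% of all genes called). The lowest single value was -0.53 at 6 h (adjusted p = 0.3, and 0.039 with the block, where 5.25% of all genes were called), where treated arrays were at 12.16 and 12.01 and vehicle arrays at 12.54 and 12.70. Treated arrays lay below vehicle arrays at 18 h too, at 12.14 and 12.18 against 12.39 and 12.54 (-0.31, adjusted p = 0.78). The share of all genes with every treated array below every vehicle array was not counted. In the other direction, every treated array lay above every vehicle array in 23.9% of all genes at 6 h and 25% at 18 h. Such separation alone is not taken here as a fall of Dnajb1. In vehicle, the Dnajb1 mean was 11.82 at 0.25 h and 12.62 at 6 h.

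Hspa8, the constitutive HSP70, gave the tightest bound. On its brightest probe treated levels ran from 14.13 to 14.71 and vehicle levels from 14.14 to 14.60, and the average difference was -0.01 (SE 0.05, 95% interval -0.10 to 0.09, adjusted p = 0.97). Differences by time ran from -0.09 to 0.08. A second probe gave 0.04 (95% interval -0.11 to 0.19).

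The third Hspa8 probe did not follow the others. Its level ran from 7.09 to 13.69, a range of 6.61, while the other probes ranged over 0.57 and 0.77. At 0.25 h replicate 1 was at 7.93 with dexamethasone and 7.86 with vehicle, and replicate 2 at 13.21 and 13.31. At 2 h the values for replicates 1, 2 and 3 were 7.09, 11.79 and 13.34 with dexamethasone and 7.27, 11.89 and 13.12 with vehicle. Same-numbered arrays of the treatments thus stood close together at these times, as they did at 1 h (13.34 and 13.22, 7.62 and 7.71) and for replicate 1 at 12 h (9.56 and 9.60). Replicate 2 differed at 12 h (13.39 and 12.41) and at 24 h (9.96 and 11.94), while replicate 1 at 24 h was at 12.08 and 12.02. Of 23323 probes above background on at least 18 arrays, 492 (2.11%) had a correlation with this probe above 0.9 or below -0.9 over the 36 arrays, 486 of them positive. The brighter Hspa1b probe had r = 0.75 with it, and the other probes that represent a member lay between -0.30 and 0.24; these correlations describe arrays that share replicate numbers and carry no test.

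**Figure D5:**
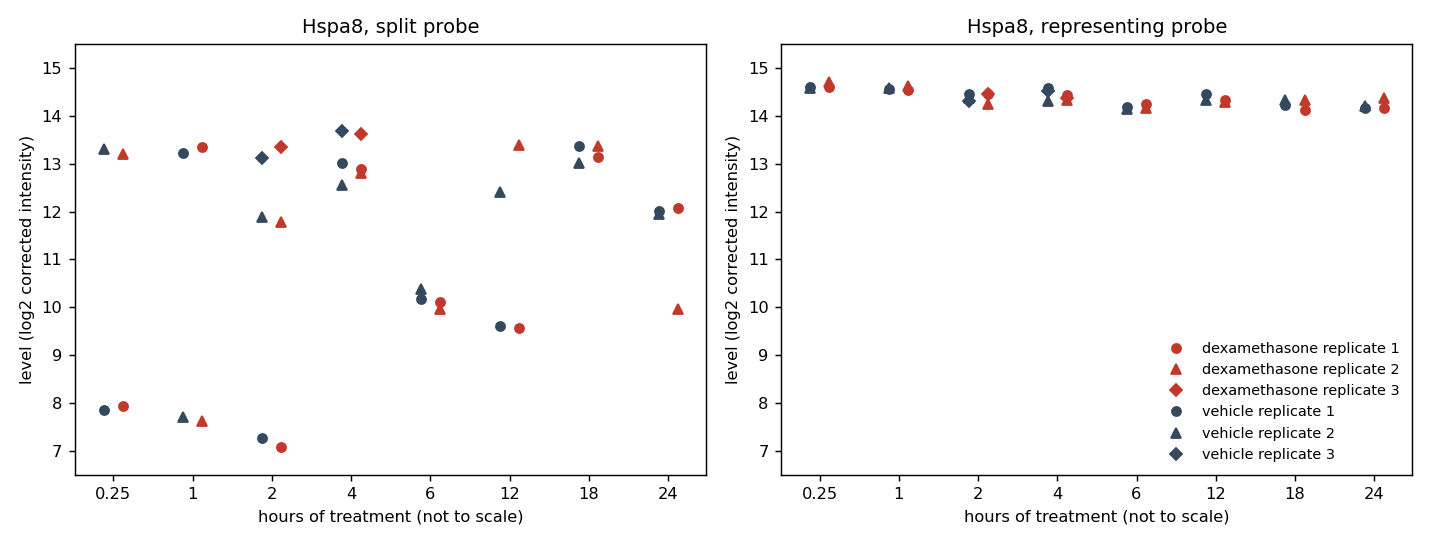
Level (log2 of corrected intensity) on the split Hspa8 probe and on the probe that represents Hspa8 against hours of treatment, with colours for treatment and shapes for replicate number. On the split probe arrays of 1 time differ by up to 6.25 between replicates and mostly lie close to the same-numbered array of the other treatment, except for replicate 2 at 12 h (dexamethasone 13.39, vehicle 12.41) and at 24 h (9.96 and 11.94); on the representing probe all 36 arrays lie between 14.13 and 14.71.

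Same-numbered differences, dexamethasone minus vehicle, were taken as a description for all 18 replicate numbers. Hsph1 was higher in 17, Hspb1 and Hspa1a in 16 each, Hspb8 in 15 (16 on its dimmer probe), Cryab in 13, Hspa1b in 12 (15 on its dimmer probe), Hspa8 in 8 and Dnajb1 in 7. Of all genes, 3.03% were higher in 16 or more. From 2 h on, Hspb1, Hspa1a and Hsph1 were higher in 14 of 14, as were 2.3% of all genes. The median over the 18 was 1.83 for Hspb1, 1.12 for Hspa1a and 0.84 for Hsph1.

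Across the 16 group means, Hspb1, Hspa1a and Hsph1 had similar courses, with r of 0.92 for Hspb1 and Hsph1, 0.90 for Hspa1a and Hsph1, and 0.89 for Hspb1 and Hspa1a. Hspb1 had r of 0.70 with Cryab, 0.52 with Hspb8, -0.07 with Dnajb1 and -0.47 with Hspa8. Among 12494 genes above background on all arrays, those with the most similar course to Hspb1 were Cd109 (r = 0.976), AI593442 (0.971) and the gene listed as D15Mit260, now Micall1 (0.97). For Hspa1a they were the entry LOC100048295 (0.962), Amigo2 (0.959) and Zhx3 (0.95), and for Hsph1 they were Ramp2 (0.97), Amigo2 (0.946) and Scara5 (0.945). Dnajb1 was nearest to Lmna (0.925), Ebna1bp2 (0.922) and Ovca2 (0.92). Hspa8 was nearest to Pcdhgb4 (0.962), Pcdhgc5 (0.942) and Gmpr (0.941), Hspb8 to Rap2a (0.889), Slc13a4 (0.85) and Prr13 (0.84), and Cryab to Slc10a7 (0.829), Dgcr6 (0.8) and LOC100046457 (0.798). For the brighter Hspa1b probe they were the unnamed entry scl0003774.1_10 (0.953), LOC100045266 (0.952) and F730003H07Rik (0.952). All points share the 36 arrays and their normalization.

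Other chaperone genes were mostly not called on average over the 8 times. Of the other small heat shock proteins, 0 of 5 measured were called (median 0.04), and of the other HSP70 and HSP110 proteins 0 of 9 (median 0.14). Among other J-domain proteins, 1 of 13 rose, Dnajb4 (0.48, SE 0.11, adjusted p = 0.0044), which encodes an HSP40. In the HSP90 machinery and chaperonins, 1 of 16 fell, Fkbp4 (-0.29, SE 0.09, adjusted p = 0.027), the gene for a co-chaperone of the glucocorticoid receptor. None of 13 heat shock factors and HSP70 co-factors was called (median -0.03). Over the same average 11.8% of all genes were called in either direction.

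In vehicle at 18 h and 24 h against 2 h to 6 h, where 11% of all genes were called lower and 20.1% in either direction, 3 of 13 heat shock factors and co-factors were lower: Hsf1, the factor that activates heat shock genes (-1.18, adjusted p = 0.00068), Bag3, a co-factor of HSP70 and HSPB8 (-0.79, adjusted p = 0.00065), and Hspbp1, listed as 1500019G21Rik (-1.24, adjusted p = 0.008). Of 16 genes of the HSP90 machinery and chaperonins 4 were lower, namely Stip1 (-0.75), Hsp90ab1 (-0.67), Ptges3 (-0.56) and Serpinh1 (-0.32). Of 5 other small heat shock proteins 2 were lower, Hspb3 (-0.82) and Hspb2 (-0.61). Among other HSP70 genes Hspa9, for the mitochondrial form, was lower (-0.41), and of the J-domain genes Dnajc5 was lower (-0.49) and Dnajc3 higher (0.58). The vehicle samples at 2 h to 6 h are those with the title suffix. Time and whatever the suffix marks therefore cannot be told apart in this comparison.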

How the data were processed

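Illumina BeadChips read 36 RNA samples; GenomeStudio is named in the submitters' processing notes without a version. The deposited series table holds 1 linear intensity per probe and array (44.8 to 49460.6), which the authors had quantile normalized without background subtraction, judging from the values: array medians run from 93.7 to 94. From a further deposited table, gene symbols alone were read; its 72 sample columns match no sample label and were not used.

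Intensities were corrected by normexp (offset 16) and taken to log2 in limma 3.58.1 (R 4.3.3); figures used matplotlib 3.10.9. Background was the 99th percentile of the intensities' lower tail mirrored about their mode (an uncorrected intensity of 91.6, which becomes 5.83 after this correction and log2). A probe entered the test with 1 symbol and a signal over this level on 2 or more arrays, and the probe with the highest mean represented each gene (20661 genes). Of their symbols 12040 are current in RefSeq, 3957 were updated and 4664 unmatched. A model of 16 group means over 36 arrays gave each comparison (20 residual and 5.24 prior degrees of freedom), with Benjamini-Hochberg adjustment over all genes and 95% intervals; arrays are few, and their number limits the precision. Scripts were tested on simulated data.

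Deviations of same-numbered arrays from their group means correlated at 0.68 to 0.86 at 2 h and 0.35 to 0.57 at 4 h, so numbers pair the samples there. At the other times the correlation was 0.8 at 0.25 h, 0.73 at 1 h, 0.03 at 6 h, 0.51 at 12 h, -0.05 at 18 h and -0.13 at 24 h. With 2 pairs each, the pairing is not settled at these times. A replicate block was therefore an alternative, beside other background corrections, filters, probe choices, weights, variance models and omissions of arrays. Named are all members and their probes, up to 4 called genes of each other chaperone list, and the 3 genes nearest each member in course. The members and lists were chosen with earlier results of these data known.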

Additional observations from a re-analysis of the deposited data

Results flagged for a closer look

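In the fit without a replicate block, Hspb1 was the one heat shock gene whose treatment difference varied over the 8 times in the F-test of equal differences (adjusted p = 0.00016, limma). Its mean difference at 12, 18 and 24 h exceeded that at 1, 2 and 4 h by 2.14 on the log2 scale (SE 0.29). Both results use vehicle samples with the title suffix, so time and whatever the suffix marks cannot be told apart. Both Hspb1 calls held without each array in turn, with the latter difference at 1.99 to 2.28. A second member was called in the F-test without any 1 of 5 arrays (dexamethasone 0.25 h replicate 1, 1 h replicate 2 and both of 12 h, vehicle 0.25 h replicate 2). A second was also called in the difference of late and early times without any 1 of 3 arrays (dexamethasone 12 h replicate 2 and 24 h replicate 2, vehicle 1 h replicate 2). No group held enough arrays for a check of single outlying arrays.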

How the results depend on the processing

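Apart from leaving out single arrays, tests of single genes and of the dimmer Hspa1b and Hspb8 probes kept their direction and side of the threshold in 298 cases, lost the call in 14, gained it in 6 and turned direction in 1: Hspa8, average 0.01 without the 12 h arrays (-0.02 to 0.01 without single arrays). The average differences ran from 1.63 to 1.87 for Hspb1, 0.71 to 0.81 for Hspa1a and 0.73 to 0.75 for Hsph1, all called. With the replicate block, 2 members were called at 2 h (1.89% of all genes), 5 at 12 h (18.6%), 3 in late minus early (13.6%) and 3 in the F-test of differences over time (10.2%), and Dnajb1 passed on average (-0.16, adjusted p = 0.021; 24.1%). With the 24 h numbers crossed, the block called 3 members and 2459 genes, against 2321 as numbered. Array weights gave 1 called member at 12 h (1.42%), 5 at 18 h (18.6%), 2 in the F-test (5.32%) and 6 in the vehicle F-test (46.9%). Fits on the arrays of 1 time gave 0 at 2 h (0.227%) and 1 at 12 h (0.116%), and fits without the 12 h arrays 2 in the F-test (2.85%). In vehicle 2 h to 6 h minus 0.25 h, fitting every probe (6.12%) or no filter (4.33%) gave 0; in vehicle 18 h and 24 h minus 2 h to 6 h, these (17.8% and 12.3%) and the filter on all 36 arrays (30.3%) gave 1; in the vehicle F-test no filter gave 1 (9.69%). The causes were not tested. Without single arrays, where a lone remaining array is assumed to vary like the other groups, members called ranged from 4 to 5 on average (10.1% to 12.9% of all genes), 0 to 1 at 2 h (0.513% to 0.668%), 3 to 3 at 4 h (1.77% to 2.01%), 0 to 2 at 6 h (0.953% to 1.07%), 2 to 3 at 12 h (2.88% to 6.81%), 1 to 2 at 18 h (1.76% to 1.85%) and 2 to 3 at 24 h (2.16% to 2.93%). They ranged from 1 to 2 in late minus early (3.84% to 6.2%) and in the F-test (2.15% to 3.86%), 0 to 1 in vehicle 2 h to 6 h (2.5% to 7.56%), 1 to 2 in vehicle 18 h and 24 h (8.51% to 20.1%) and 0 to 2 in the vehicle F-test (8.92% to 22.6%). Hspb8 passed on average under 5 settings (0.19, adjusted p down to 0.0095). Array weights ended the 12 h calls of Cryab, Hsph1 and both dimmer probes. The alternatives for the dimmer probes and the crossed numbers were chosen after seeing the data. Signal over background limits the dim Hspa1a, Hspa1b and Hspb1 probes.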
